A study of Homo sapiens with 9 samples.

Results

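The transcripts of 5 carcinoembryonic antigen-related cell adhesion molecules (CEACAMs) were followed in A549, a long-established cell line from a human lung adenocarcinoma: CEACAM1, CEACAM5, CEACAM6, CEACAM7 and CEACAM8. The genes were chosen by name, with CEACAM6 picked because its level was high with both siRNAs, and all of their probe sets on the array were taken. That gave 5 genes with 13 probe sets, of 19775 genes and 54613 probe sets in all. Cells had been transfected with an siRNA against NRF2 (Nrf2 siRNA, 25 nM), with a non-targeting siRNA (NS siRNA, 25 nM), or treated with the transfection reagent Lipofectamine 2000 alone (mock), and RNA was taken 96 h later. Each group held 3 biological replicates of the same line, each on its own Affymetrix array. The series asked which genes are regulated by NRF2, the transcription factor of the antioxidant response.

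CEACAM proteins are cell surface glycoproteins of the immunoglobulin superfamily that bind each other between and along cells. CEACAM1 spans the membrane, and its long isoforms carry inhibitory tyrosine motifs that recruit the phosphatases PTPN6 and PTPN11. CEACAM5 (the tumour marker CEA), CEACAM6, CEACAM7 and CEACAM8 are held in the membrane by a glycosylphosphatidylinositol (GPI) anchor. CEACAM5 and CEACAM6 are often abundant in carcinomas, lung adenocarcinoma included, CEACAM7 is mainly a gene of colon epithelium, and CEACAM8 one of granulocytes. All 5 genes lie in the family's cluster on chromosome 19.

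The values are log2 expression levels, so a difference of 1 is 2-fold. NFE2L2, the gene of NRF2, stood at 10.25 ± 0.11 (SD, n = 3) with Nrf2 siRNA, 12.09 ± 0.06 with NS siRNA and 11.99 ± 0.08 in mock. Array medians lay between 7.51 and 7.57, and the median SD between replicates was 0.0743. Of 8 epithelial marker genes 7 were above the array median on all 9 arrays, KRT8, KRT18, EPCAM and CDH1 among them, and CLDN3 was not. Of 12 granulocyte and leukocyte markers 7 were below it on all 9 arrays, among them PTPRC, the pan-leukocyte phosphatase, and S100A8, S100A9, ELANE and FCGR3B of granulocytes; CD14 and CSF3R were above it on all 9.

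Both siRNA groups had far more CEACAM6 transcript than mock, and the Nrf2 siRNA group had less than the NS siRNA group. Probe set 211657_at read 11.10, 11.10 and 11.22 with Nrf2 siRNA, 11.49, 11.46 and 11.71 with NS siRNA, and 9.25, 9.09 and 8.97 in mock. The 3 groups did not overlap: NS siRNA was highest, Nrf2 siRNA came next, and mock was lowest. The other CEACAM6 probe set, 203757_s_at, read 10.60, 10.60 and 10.80 with Nrf2 siRNA, 11.08, 11.14 and 11.22 with NS siRNA, and 8.45, 8.37 and 8.32 in mock. Its order of groups was the same, again with no overlap. Across the 9 arrays the readings of both probe sets had a Pearson correlation of 0.9985, a description over arrays of 3 groups. In a whole culture, fewer cells that express a gene and less of its RNA per cell cannot be told apart.

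Against mock, CEACAM6 was 4.09-fold (211657_at) and 4.89-fold (203757_s_at) higher with Nrf2 siRNA, and 5.46-fold and 6.82-fold higher with NS siRNA. On the log2 scale these differences were 2.03 ± 0.08 and 2.29 ± 0.06 (SE) for Nrf2 siRNA and 2.45 ± 0.08 and 2.77 ± 0.06 for NS siRNA. Among all 54613 probe sets, the CEACAM6 probe sets held ranks 1 and 2 in the rise with NS siRNA over mock, and ranks 25 and 49 in the rise with Nrf2 siRNA over mock. These values chose the gene and are a description, with no test. Against mock, 4 of the 13 CEACAM probe sets were 2-fold or more higher with Nrf2 siRNA (both of CEACAM6 and 2 of CEACAM1), where 1.12% of all probe sets differed that much. With NS siRNA 2 were (both of CEACAM6), where 0.668% of all did. The arrays did not overlap with mock in 7 of 13 with Nrf2 siRNA (35.5% of all probe sets) and in 6 of 13 with NS siRNA (36.0% of all). Over the whole array 24.1% of probe sets passed the limma test between Nrf2 siRNA and mock, 13.1% higher. Between NS siRNA and mock 21.4% passed, 10.4% higher and 11.1% lower. Since the rule used these comparisons, nothing is read from the counts.

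**Figure D1:**
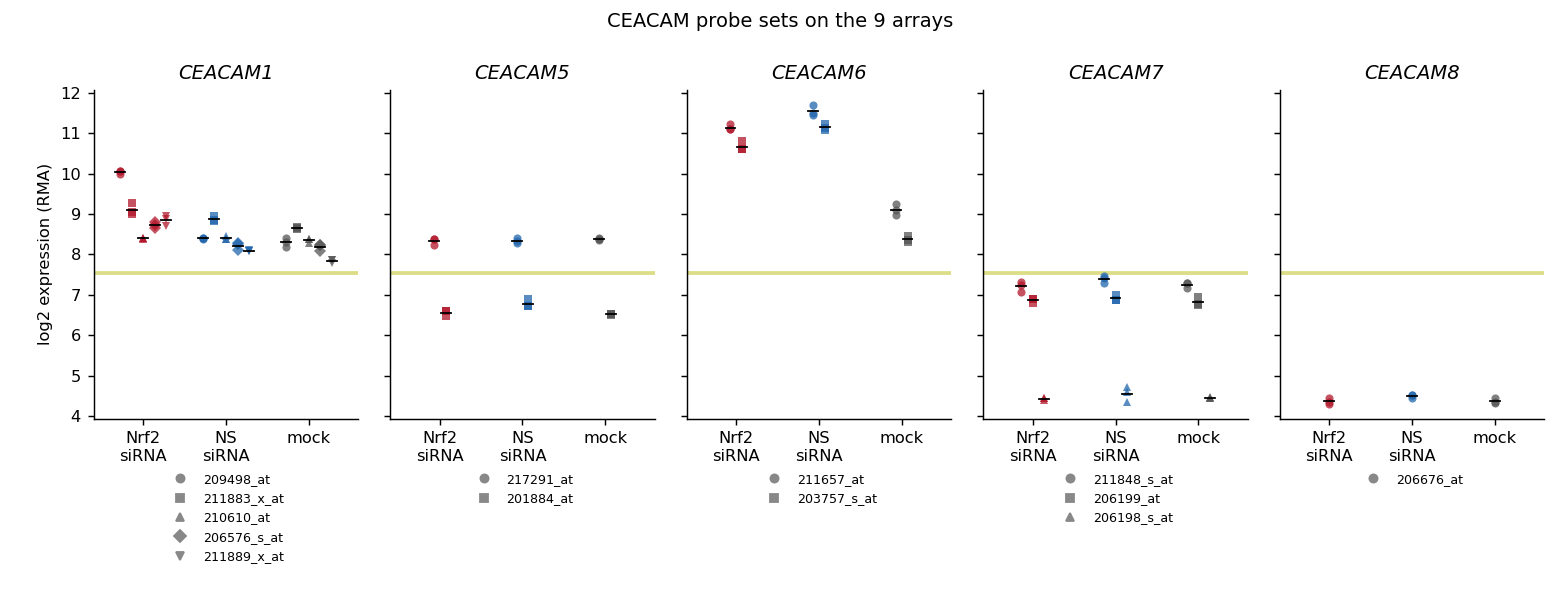
Log2 expression of the 13 CEACAM probe sets (symbols) on each of the 9 arrays, by group on the horizontal axis; black bars are means of 3 arrays, and the pale band spans the array medians (7.51 to 7.57). CEACAM6 lies at 10.60 or higher with both siRNAs and at 9.25 or lower in mock, CEACAM1 209498_at averages 10.04 with Nrf2 siRNA, against 8.40 with NS siRNA and 8.30 in mock, and CEACAM7 and CEACAM8 lie below the band in every group.

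The rule that chose the genes named CEACAM6 as high with both siRNAs and did not name the difference between them. That difference was tested with limma over all 54613 probe sets and Benjamini-Hochberg adjustment. The genes were chosen with earlier results of these data known, so its p-values are not independent of the choice. The test shares the NS siRNA and Nrf2 siRNA arrays with the comparisons against mock. CEACAM6 fell by 0.42 ± 0.08 (SE, 211657_at, adjusted p = 0.00118) and by 0.48 ± 0.06 (203757_s_at, adjusted p = 6.48e-05) with Nrf2 siRNA relative to NS siRNA. The level was 1.33-fold and 1.39-fold lower than with NS siRNA, and the 95% intervals of the log2 difference ran from -0.59 to -0.24 and from -0.62 to -0.34. Both calls held in all alternatives run, including without each array in turn. The series has 1 Nrf2 siRNA and no rescue, so an effect of NRF2 loss cannot be told apart from anything else that this siRNA did to the cells.

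CEACAM1, the member with a signalling tail, went the other way: it rose with Nrf2 siRNA relative to NS siRNA. Its probe set of highest mean, 209498_at, read 9.99, 10.07 and 10.07 with Nrf2 siRNA, 8.42, 8.40 and 8.39 with NS siRNA, and 8.41, 8.30 and 8.19 in mock. All 3 Nrf2 siRNA arrays lay far above the other 6, while the NS siRNA and mock arrays overlapped. It rose 3.12-fold against NS siRNA (log2 1.64 ± 0.06 SE, limma adjusted p = 4.23e-10, 95% interval 1.52 to 1.77), which was rank 226 of 54613 among rises. Against mock, as a description, the log2 difference was 1.74 ± 0.06 with Nrf2 siRNA and 0.10 ± 0.06 with NS siRNA. CEACAM6 and CEACAM1 thus differed in which siRNA group was highest.

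The size for CEACAM1 depended on the probe set. Probe set 211889_x_at read 8.87, 8.70 and 8.95 with Nrf2 siRNA, 8.10, 8.08 and 8.09 with NS siRNA, and 7.86, 7.86 and 7.78 in mock, with no overlap between any groups, and rose 1.68-fold against NS siRNA (adjusted p = 8.29e-07). Probe set 206576_s_at read 8.74, 8.65 and 8.80 with Nrf2 siRNA, 8.27, 8.10 and 8.29 with NS siRNA, and 8.23, 8.23 and 8.08 in mock, and rose 1.42-fold (adjusted p = 4.94e-05). In that probe set NS siRNA and mock overlapped. Probe set 211883_x_at read 9.04, 9.01 and 9.28 with Nrf2 siRNA, 8.84, 8.83 and 8.96 with NS siRNA, and 8.69, 8.66 and 8.63 in mock. Its rise of 1.17-fold passed the limma test (adjusted p = 0.0194) but not without Nrf2 siRNA replicate 3 (log2 0.15 in place of 0.23, adjusted p = 0.0725), NS siRNA replicate 1 (0.0598) or NS siRNA replicate 2 (0.0689), nor after quantile normalization (0.0898). Probe set 210610_at was flat, at 8.41, 8.38 and 8.40 with Nrf2 siRNA, 8.37, 8.46 and 8.39 with NS siRNA, and 8.38, 8.37 and 8.29 in mock, and differed between the siRNAs by -0.01 ± 0.05 (adjusted p = 0.867, 95% interval -0.12 to 0.09).

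So 4 of 5 CEACAM1 probe sets rose and 1 did not pass, with sizes between 0.23 and 1.64 among those that rose; which isoforms each one reads is not given in the sources used here. With the mean of all 5 probe sets taken, the CEACAM1 difference was 0.62 (adjusted p = 3.26e-07). Probe sets whose name ends in _x_at hold probes that may bind other, similar transcripts, and CEACAM transcripts are similar. NS siRNA exceeded mock by 0.22 ± 0.07 and 0.26 ± 0.06 in the 2 such CEACAM1 probe sets and by 0.10, 0.06 and 0.04 in the other 3. Whether the _x_at probe sets also read CEACAM6 RNA was not tested.

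CEACAM5, CEA itself, differed little, and its probe sets disagreed on the call. Probe set 217291_at read 8.37, 8.24 and 8.38 with Nrf2 siRNA, 8.28, 8.33 and 8.41 with NS siRNA, and 8.36, 8.38 and 8.41 in mock, and all groups overlapped. It differed between the siRNAs by -0.01 ± 0.05 (limma adjusted p = 0.935, 95% interval -0.13 to 0.11). Probe set 201884_at, below the array median on all 9 arrays, read 6.60, 6.60 and 6.47 with Nrf2 siRNA, 6.73, 6.89 and 6.71 with NS siRNA, and 6.54, 6.53 and 6.51 in mock. NS siRNA was the highest group there, and the level with Nrf2 siRNA fell by 0.23 ± 0.06 relative to it (adjusted p = 0.00856), while Nrf2 siRNA and mock overlapped. For CEACAM5 as the mean of both probe sets the difference was -0.12 (adjusted p = 0.0282).

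CEACAM7 and CEACAM8 were dim throughout. The 3 CEACAM7 probe sets and the 1 of CEACAM8 lay below the array median on all 9 arrays, and with no detection call the values do not show whether these genes were expressed. CEACAM7 211848_s_at read 7.31, 7.08 and 7.25 with Nrf2 siRNA, 7.29, 7.43 and 7.47 with NS siRNA, and 7.29, 7.16 and 7.30 in mock, and the groups overlapped. Its difference between the siRNAs, -0.18 ± 0.07, missed the threshold (limma adjusted p = 0.0629) and passed without NS siRNA replicate 1 (0.0293), without Nrf2 siRNA replicate 1 (0.0339) and with 1 probe set a gene (0.0455). CEACAM7 206199_at was at -0.04 ± 0.06 (adjusted p = 0.62) and 206198_s_at at -0.12 ± 0.08 (adjusted p = 0.237). Probe set 206198_s_at passed without NS siRNA replicate 1 (-0.22, adjusted p = 0.00842). The granulocyte gene CEACAM8 read 4.45, 4.36 and 4.31 with Nrf2 siRNA, 4.46, 4.53 and 4.53 with NS siRNA, and 4.32, 4.34 and 4.45 in mock. Nrf2 siRNA and NS siRNA did not overlap, by a small margin, and the difference of -0.13 ± 0.06 did not pass (adjusted p = 0.0833). It passed without Nrf2 siRNA replicate 1 (0.0386) and in the fit on the mean of each gene's probe sets (0.0448).

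Among dim probe sets the differences between the siRNAs were mostly small and more often negative than positive. Over the 24985 probe sets below the array median on all 9 arrays, the median difference of Nrf2 siRNA minus NS siRNA was -0.05, the quartiles were -0.12 and 0.02, and 16.7% passed the threshold. NS siRNA minus mock had a median of 0.03 there, with quartiles of -0.02 and 0.09. CEACAM7 211848_s_at and 206198_s_at, CEACAM8 and CEACAM5 201884_at lay below the lower quartile for Nrf2 siRNA minus NS siRNA. As a description, the same probe sets lay above the upper quartile for NS siRNA minus mock. CEACAM7 206199_at lay between the quartiles in both.

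**Figure D2:**
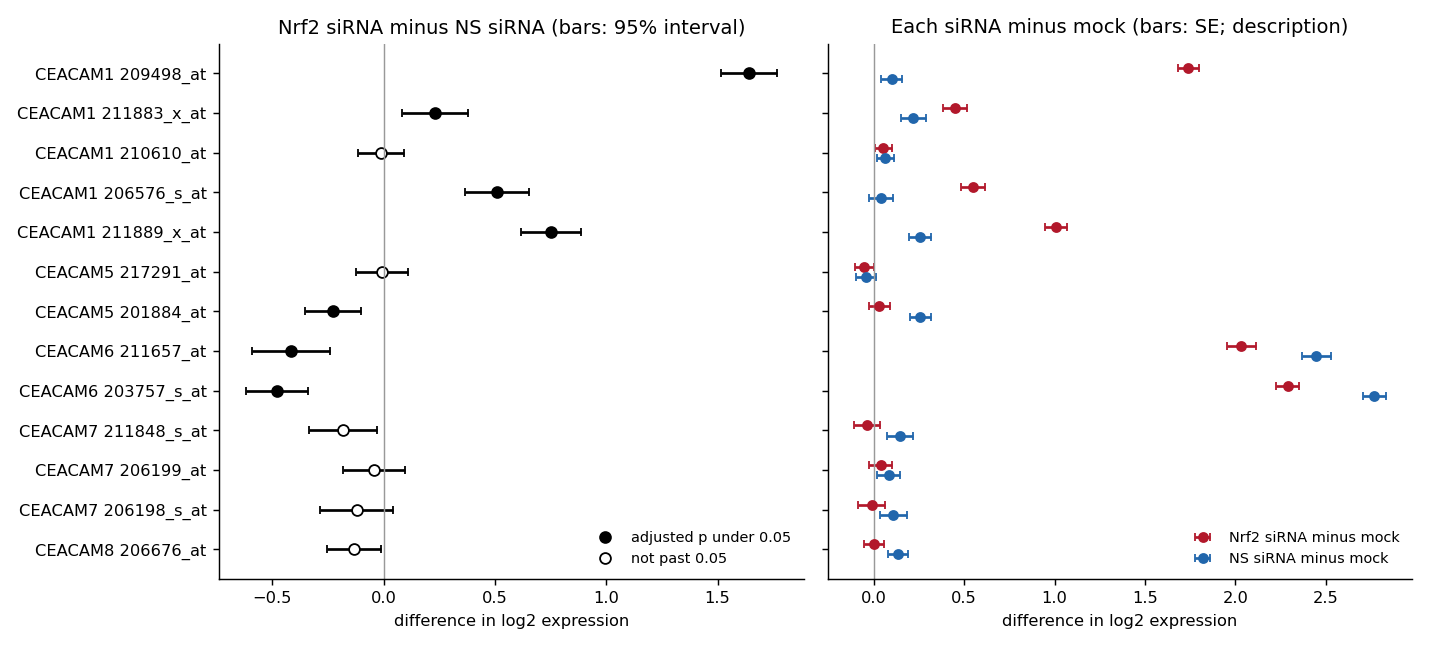
Differences in log2 expression for the 13 probe sets: left, Nrf2 siRNA minus NS siRNA with 95% intervals, filled where the adjusted p is under 0.05; right, each siRNA minus mock with SE bars, as a description. On the left CEACAM1 209498_at lies at 1.64 and both CEACAM6 probe sets lie below 0; on the right CEACAM6 lies above 2 for both siRNAs.

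In all, 7 of 13 probe sets passed the test of Nrf2 siRNA against NS siRNA, 4 higher (all CEACAM1) and 3 lower (both of CEACAM6 and 1 of CEACAM5). Of all probe sets, 36.0% passed in that comparison, 17.3% higher and 18.7% lower. The median difference was -0.04 over the 13 and -0.04 over all probe sets. Of the 13, 1 differed by 2-fold or more, against 2.14% of all. The arrays of the siRNA groups did not overlap in 8 of 13 probe sets and in 45.5% of all.

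The promoters of CEACAM6, CEACAM5 and CEACAM1 are shown because these members of one gene cluster, similar in sequence, gave different patterns by their probe sets of highest mean. CEACAM6 was high with both siRNAs, CEACAM5 was nearly flat, and CEACAM1 was highest with Nrf2 siRNA. The pattern depended on the probe set: CEACAM5 201884_at was highest with NS siRNA, and CEACAM1 210610_at was flat. Each run holds 250 bases before and 50 after the start of the gene, from RefSeq (GRCh38.p14). Capitals mark matches, on either strand, to the E-box CACGTG, which USF factors can bind, the GC box GGGCGG of SP1-type factors, and TGACNNNGC, the core of the antioxidant response element that NRF2 binds.
CEACAM6, chr19:41755280-41755579, plus strand: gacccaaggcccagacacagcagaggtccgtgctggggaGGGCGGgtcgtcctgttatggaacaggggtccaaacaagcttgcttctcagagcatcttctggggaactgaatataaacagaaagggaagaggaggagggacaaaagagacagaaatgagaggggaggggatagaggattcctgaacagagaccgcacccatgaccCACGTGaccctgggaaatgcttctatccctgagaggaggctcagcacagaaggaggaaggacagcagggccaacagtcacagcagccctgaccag
CEACAM5, chr19:41708376-41708675, plus strand: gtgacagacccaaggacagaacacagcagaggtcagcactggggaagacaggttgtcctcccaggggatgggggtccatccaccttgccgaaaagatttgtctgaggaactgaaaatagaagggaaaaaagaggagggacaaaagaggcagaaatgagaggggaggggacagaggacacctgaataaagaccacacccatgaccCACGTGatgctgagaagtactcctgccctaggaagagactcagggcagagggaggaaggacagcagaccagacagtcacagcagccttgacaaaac
CEACAM1, chr19:42528432-42528731, minus strand: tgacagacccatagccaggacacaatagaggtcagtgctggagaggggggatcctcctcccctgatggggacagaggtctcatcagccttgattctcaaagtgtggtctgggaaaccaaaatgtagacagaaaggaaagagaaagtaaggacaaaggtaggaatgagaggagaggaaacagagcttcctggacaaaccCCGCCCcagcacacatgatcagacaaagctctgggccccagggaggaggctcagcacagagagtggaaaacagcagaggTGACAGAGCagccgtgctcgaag

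Over aligned bases, the CEACAM6 window was 81.7% identical to that of CEACAM5 and 76.4% identical to that of CEACAM1. It was 83.4% identical to that of CEACAM7, whose probe sets were dim in every group, and 78.5% identical to that of CEACAM8. CACGTG began 45 bases before the start in CEACAM6 and 46 before it in CEACAM5, and was in none of the other 3 members' windows; 7.26% of 35116 promoter windows of that length hold it. GGGCGG or its complement was in the windows of CEACAM6, CEACAM1 and CEACAM8, against 45.0% of all windows. TGACNNNGC was in that of CEACAM1 alone among the 5, beginning at base 28 after the start, against 13.3% of all windows. These are matches of letters, not binding sites.

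Genes whose levels ran most like CEACAM6 (211657_at) over the 9 arrays were taken from the 672 genes, members left out, whose group means spanned 1 log2 unit or more. ALDH1A3, a retinaldehyde dehydrogenase, had a Pearson correlation of 0.9887 with it, TNFSF9, the 4-1BB ligand, 0.9852, AHR, the aryl hydrocarbon receptor, 0.984, TNFAIP8, a TNF-induced gene, 0.9718, and LACC1, an enzyme of macrophage metabolism, 0.9483. The points share the 9 arrays and 3 groups. ALDH1A3 stood at 9.83 ± 0.04 (SD, n = 3) with Nrf2 siRNA, 10.02 ± 0.04 with NS siRNA and 8.54 ± 0.08 in mock, the same order of groups as CEACAM6. Since the genes were chosen for this pattern on the same arrays, their differences are a description, with no test. Nrf2 siRNA minus NS siRNA was -0.18 for ALDH1A3, -0.18 for TNFSF9, -0.14 for AHR, -0.25 for TNFAIP8 and -0.44 for LACC1.

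For CEACAM1 (209498_at) the closest were ANXA13, an annexin (0.9984), PLAAT4, a phospholipid-modifying enzyme (0.9982), KIAA1671 (0.9981), PDE8B, a cAMP phosphodiesterase (0.998), and GPCPD1, a glycerophosphocholine phosphodiesterase (0.9977). ANXA13 stood at 11.31 ± 0.06 with Nrf2 siRNA, 9.16 ± 0.06 with NS siRNA and 8.99 ± 0.14 in mock. Nrf2 siRNA minus NS siRNA ran from 0.90 to 2.16 on the log2 scale over the 5, a direction that their choice fixed. For CEACAM5 (217291_at), which was nearly flat, the highest correlation was 0.4894 (EPHX1, an epoxide hydrolase), followed by GSR, SNAI1, NOTCH3 and HGD down to 0.4286. Only genes whose group means spanned 1 log2 unit or more were searched, so flat genes, which could be more like it, were not among the candidates.

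**Figure D3:**
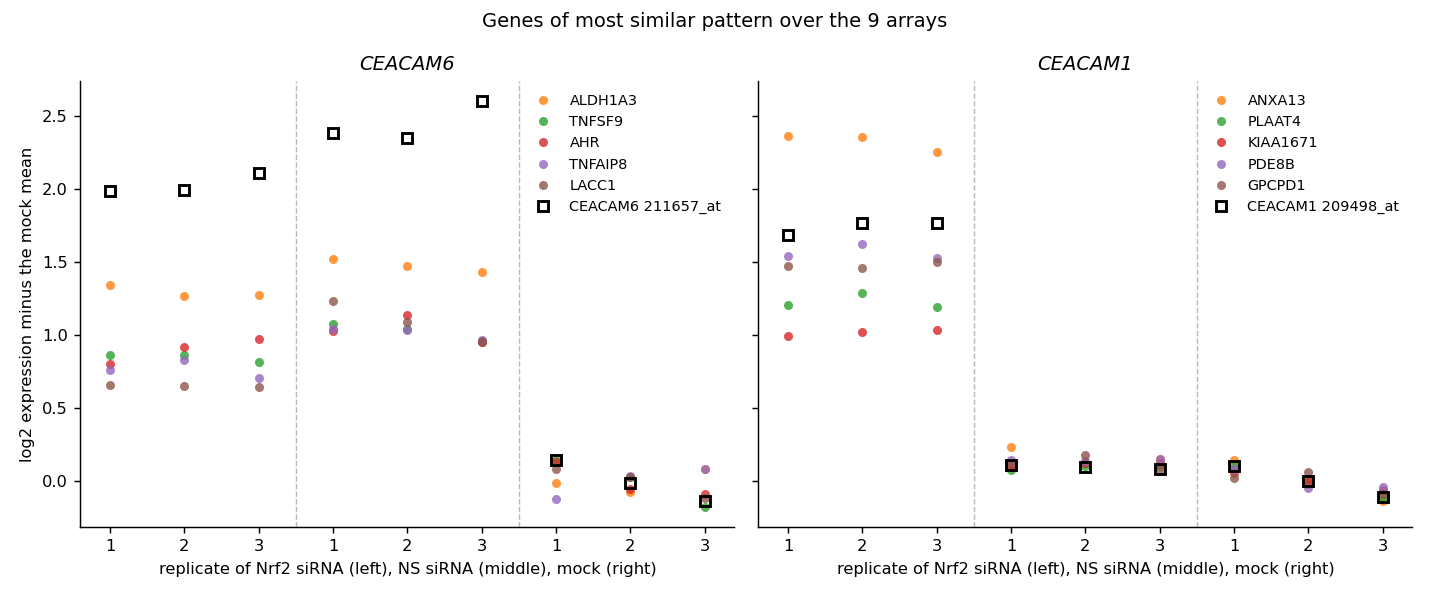
Log2 expression minus the gene's mock mean on each array for CEACAM6 (left panel) and CEACAM1 (right panel), as open black squares, with the 5 genes that correlate best with each. The CEACAM6 set is high in both siRNA groups and the CEACAM1 set in the Nrf2 siRNA group; the size of the rise differs between genes.

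The remaining CEACAM genes moved little. Of 7 listed, CEACAM3, CEACAM4, CEACAM19 and CEACAM21 were measured. By its probe set of highest mean, CEACAM19 rose by 0.26 ± 0.05 (SE) with Nrf2 siRNA against NS siRNA (limma adjusted p = 0.000767) and CEACAM21 fell by 0.23 ± 0.08 (0.0309). CEACAM3, a granulocyte phagocytic receptor, was at -0.11 ± 0.05 (0.104), although its dimmer probe sets 210789_x_at and 217209_at were at -0.26 and -0.22 (0.00844 and 0.0295), and CEACAM4 was at -0.12 ± 0.06 (0.163). Against mock, 0 of the 4 passed the limma test with Nrf2 siRNA (1 at an unadjusted p under 0.05), where 29.9% of all genes did, 15.2% higher and 14.8% lower. With NS siRNA CEACAM21 was 0.25 higher and CEACAM19 0.15 lower than mock (adjusted p = 0.0326 and 0.0357), where 27.1% of all genes passed, 13.3% higher and 13.9% lower. Of 9 measured pregnancy-specific glycoproteins, the placental branch of the same family, 1 fell with Nrf2 siRNA against NS siRNA (PSG11, -0.21, adjusted p = 0.00459) and 0 rose, and by limma 0 passed against mock with either siRNA (2 with Nrf2 siRNA and 1 with NS siRNA at an unadjusted p under 0.05). Their differences of NS siRNA minus mock ran from 0.01 to 0.17. In these and the following counts each gene stands by its probe set of highest mean. Of all 19775 genes 43.7% passed: 20.1% rose and 23.6% fell with Nrf2 siRNA against NS siRNA, with a median of -0.05.

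Among 18 measured adhesion and signalling partners of CEACAM proteins, 4 rose and 7 fell with Nrf2 siRNA against NS siRNA, with a median of -0.07. EGFR, the epidermal growth factor receptor, stood at 11.07 with Nrf2 siRNA, 9.12 with NS siRNA and 10.17 in mock and rose by 1.95 ± 0.05 (SE, adjusted p = 3.44e-11). The Src-family kinase FYN rose by 0.78 ± 0.09 (2.05e-05), whereas SRC itself fell by 0.56 ± 0.07 (3.39e-05). Of the phosphatases that bind the CEACAM1 tail, PTPN11 fell by 0.27 (0.000656) and PTPN6 was at 0.05 (0.547).

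The machinery that builds and attaches GPI anchors was mixed: of 28 measured genes 8 rose and 11 fell, with a median of -0.06. PIGW, an inositol acyltransferase of the pathway, fell by 1.00 ± 0.05 (adjusted p = 5.37e-09), PIGL, the deacetylase, fell by 0.51 ± 0.05 (5.18e-06), and PIGH, a subunit of the first transferase, rose by 0.64 ± 0.06 (1.41e-06). PIGL was higher with NS siRNA than in mock by 0.60 and PIGH was lower by 0.57, while with Nrf2 siRNA they differed from mock by 0.09 and 0.07 (0.245 and 0.425). PIGW differed from mock with both siRNAs, by -0.72 with Nrf2 siRNA (2.05e-07) and by 0.28 with NS siRNA (0.000828).

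Other GPI-anchored surface proteins rose more often than they fell with Nrf2 siRNA against NS siRNA, with 11 of 25 higher, 2 lower and a median of 0.05. NT5E, the ecto-5'-nucleotidase CD73, rose by 2.05 ± 0.07 (adjusted p = 5.03e-10), CD59, a complement regulator, by 1.15 ± 0.04 (7.93e-10), and CD24, a small mucin-like glycoprotein, by 0.69 ± 0.04 (7.15e-08). With NS siRNA all 3 were lower than in mock, with log2 differences of -0.93, -0.40 and -0.51. By limma 2 of the 25 were higher and 8 lower with NS siRNA than in mock, where 13.3% of all genes were higher and 13.9% lower. Of 8 measured transcription factors studied at CEACAM promoters, SP3 and SP1 rose by 0.50 and 0.25 with Nrf2 siRNA against NS siRNA (5.01e-06 and 0.0085). SMAD3 fell by 0.56 (6.65e-07), USF1 and USF2 were at -0.03 and -0.12 (0.782 and 0.0616), and the median was -0.05. Against mock, 2 of the 8 were higher and 1 lower with Nrf2 siRNA, and 2 higher and 0 lower with NS siRNA. Of all genes 29.9% and 27.1% passed there. IRF1 was higher than mock with both, by 0.39 and 0.38. A part of these factors in the CEACAM differences was not tested.

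Some epithelial markers differed between the groups as well. KRT19, a simple-epithelium keratin, stood at 12.61 with Nrf2 siRNA, 11.46 with NS siRNA and 10.66 in mock. EPCAM, an epithelial adhesion molecule, stood at 9.83 with Nrf2 siRNA, 9.34 with NS siRNA and 8.63 in mock. CDH1, E-cadherin, stood at 10.00 with Nrf2 siRNA, 9.53 with NS siRNA and 9.07 in mock. These 3 of the 8 markers rose with Nrf2 siRNA against NS siRNA. KRT7 fell by 0.17 in that comparison (limma adjusted p = 0.0342), the other 4 did not pass, and the median was 0.05. Against mock 4 rose and 1 fell with Nrf2 siRNA, where 29.9% of all genes passed. With NS siRNA 4 rose and 0 fell against mock, where 27.1% of all genes passed. The summed linear signal of the 8 ran from 72459 to 76656 with Nrf2 siRNA, from 70191 to 70764 with NS siRNA and from 65367 to 66845 in mock. KRT18, KRT8 and KRT7, the brightest of the 8, weigh most in that sum. The part of these markers in the CEACAM1 and CEACAM6 differences was not tested. Of the 12 granulocyte and leukocyte markers CD14 rose by 0.96 (limma adjusted p = 1.59e-07) and ITGAM fell by 0.28 (0.00874) with Nrf2 siRNA against NS siRNA (median -0.07). With NS siRNA against mock 0 of the 12 passed by limma (1 at an unadjusted p under 0.05), where 27.1% of all genes did. Of probe sets below the array median on all 9 arrays, as 7 of the 12 markers were, 6.47% passed in that comparison.

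**Figure D4:**
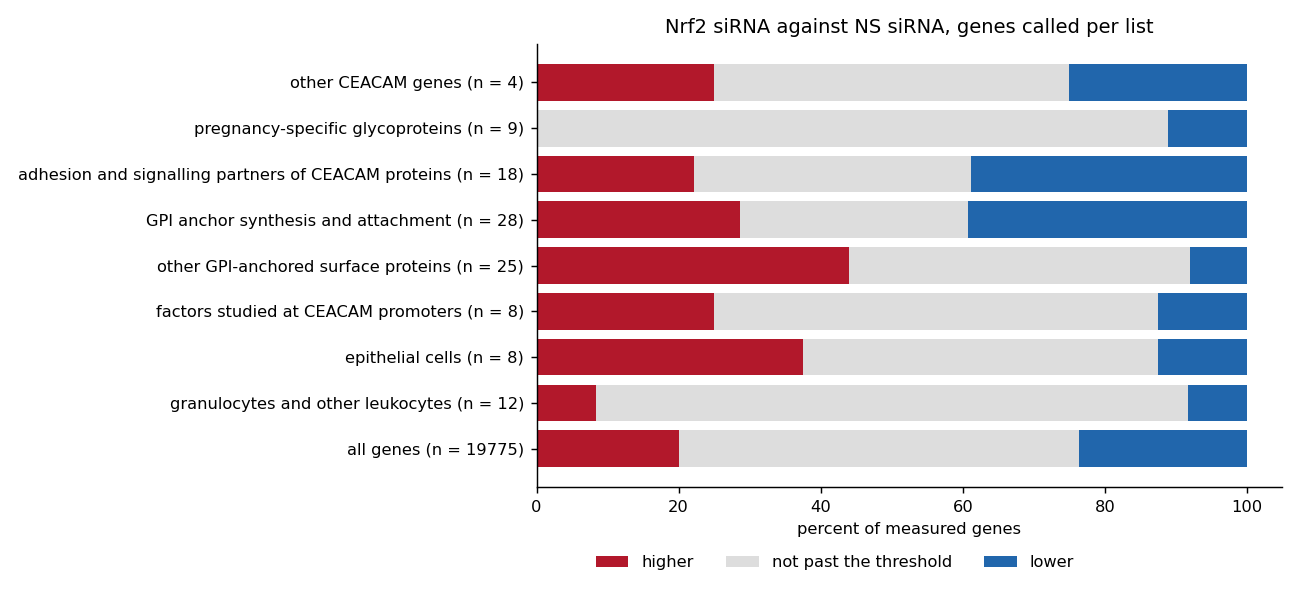
Share of the measured genes of each list that were higher (red), not past the threshold (grey) or lower (blue) with Nrf2 siRNA against NS siRNA, with the number of genes beside each name and all 19775 genes at the bottom. Other GPI-anchored surface proteins have 11 of 25 genes higher and 2 lower, whereas pregnancy-specific glycoproteins have 8 of 9 not past the threshold.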

How the data were processed

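RNA from A549 cells was labelled as biotinylated cRNA and read on Affymetrix arrays of 54675 probe sets. The deposited log2 values were made by the authors with RMA, a method that includes normalization between arrays, per the submitters' processing notes; which version was run is not stated in those notes. The number of arrays limits the precision, and no detection calls, scanner files or scan dates were used. All 9 columns were matched by accession and grouped by title; 0 were unused.

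The 62 control probe sets were left out. Each of the other 54613 was fitted on its own with limma 3.58.1 (R 4.3.3, lmFit and eBayes, 3 group means, 6 residual degrees of freedom plus 6.2 from the prior), two-sided, with Benjamini-Hochberg adjustment over all 54613 and a threshold of 0.05. Genes came from the array's annotation table, updated by Entrez identifier to GRCh38.p14 RefSeq symbols (41037 of 41091 single-gene probe sets matched; 1801 named several genes and 11721 were unnamed here). No several-gene probe set named a CEACAM gene. In the lists a gene stands by its single-gene probe set of highest mean. No low-value filter was applied, so all 13 CEACAM probe sets were tested. The fit was also run on simulated arrays with independent noise and few changed probe sets. That setting differs from the data, so nothing is read from it.

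The members and lists were chosen with earlier results of these data known. Genes named were every CEACAM probe set of the members, every other measured CEACAM gene, in each further list the 3 or fewer called genes of lowest adjusted p for Nrf2 siRNA against NS siRNA (for pregnancy-specific glycoproteins also any called for NS siRNA against mock, of which there were 0), and the 5 best-correlated genes for CEACAM1, CEACAM5 and CEACAM6. PTPN6, PTPN11, USF1, USF2, IRF1 and single markers were added after their values were seen. Promoter windows were aligned with Biopython 1.88. Alternatives were equal array medians, quantile normalization, a filter on dim probe sets, single-gene probe sets, 1 probe set or the mean of probe sets per gene, eBayes with a trend and robust variances, the 2 groups compared fitted alone, a replicate block and leaving out each array.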

Additional observations from a re-analysis of the deposited data

How the results depend on the processing

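Of 13 CEACAM probe sets 7 passed for Nrf2 siRNA against NS siRNA, and 6 to 9 did when single arrays were left out. Counts over genes in place of probe sets were smaller by construction. With 1 probe set a gene, 3 of the 5 members passed, and 9422 genes passed between the siRNAs, 6530 for Nrf2 siRNA against mock and 6082 for NS siRNA against mock. With probe sets averaged within each gene these were 4 members and 9480, 6401 and 5807 genes. In the main setting 19686, 13166 and 11696 probe sets passed. The replicate number as a block gave 7 of the 13 and 20194 of all probe sets for Nrf2 siRNA against NS siRNA, and changed no call of a member. The labels give the numbers no shared origin, and same-numbered arrays deviated from their group means with correlations of -0.1746 to 0.1849, over 0.1 in 4 of 9 pairs. No CEACAM difference that passed changed sign in any alternative, and the calls of both CEACAM6 probe sets, CEACAM5 201884_at and the CEACAM1 probe sets 209498_at, 206576_s_at and 211889_x_at held wherever they were fitted. The filter on dim probe sets left out CEACAM7, CEACAM8 and CEACAM5 201884_at. The replicates per group limit the precision, and no detection call bounds the dim probe sets.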

Other observations

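Genes next to CEACAM6 and CEACAM1 on chromosome 19, in the order of the GRCh38.p14 RefSeq table, were looked up after the other values were seen. The nearest protein-coding genes beside CEACAM6 are CEACAM5 and CEACAM3, with CEACAM7 and CEACAM4 beyond CEACAM5. NS siRNA minus mock was -0.05 for CEACAM5 217291_at and 0.26 for CEACAM5 201884_at, whose arrays did not overlap, and 0.14 for CEACAM7 211848_s_at, all as a description. By limma it was 0.06 for CEACAM4 (adjusted p = 0.563) and 0.04 for CEACAM3 208052_x_at (0.634). The CEACAM3 probe sets 210789_x_at and 217209_at were at 0.10 and 0.17 (0.367 and 0.127). LYPD4 and DMRTC2, the next genes on the CEACAM3 side, were at 0.04 and -0.05 (0.666 and 0.66). Beside CEACAM1 lie CXCL17, an epithelial chemokine, and CEACAM8. With Nrf2 siRNA against NS siRNA, CXCL17 was at 0.00 (adjusted p = 0.974), LIPE, hormone-sensitive lipase, at -0.13 (0.0887) and CEACAM8 at -0.13 (0.0833). CNFN, beyond LIPE, fell by 0.21 (0.0138), and PSG3, beyond CEACAM8, was at -0.03 (0.691).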
